A study of Mus musculus with 3 samples.

Results

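The keratin genes are the 47 rows of the gene count table, out of 37411, whose symbol is Krt followed only by digits. They were taken by symbol alone and by no measured value, though earlier results of these data were known at the choice. The RNA came from Myc-CaP tumor cells, a mouse prostate cancer line in which a MYC transgene is carried, grown under the skin of male FVB mice labelled as wild type. The labels give 3 samples, 1 for each stage. PPC cells came from untreated, uncastrated mice with tumors of 500 mm3 (labelled day 0). The other mice were castrated at a tumor volume of about 500 mm3. S-PC cells were taken from shrunken tumors 10 days later, and CRPC cells from tumors that had regrown to 500 mm3 (labelled day 30). The mice are given as 6 weeks old in every case, the line is a single cell line, and the labels do not say whether a sample pools several mice. The count table has 3 columns, whose names are the experiment number followed by 1, 2 or 3. The experiment number stands in the description of all 3 samples, and no label ties a column to a stage. The columns are called libraries L3, L2 and L1 after the last digit of their names, no stage is attached to any value, and no comparison between stages is made.

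Keratins are the intermediate filament proteins of epithelial cells. A filament is built from pairs of 1 acidic type I and 1 basic type II keratin, so a cell that makes filaments uses genes of both types. In the prostate, the luminal secretory cells are known for Krt8 and Krt18, with Krt19 in luminal and intermediate cells. The basal cells that lie under them are known for Krt5 and Krt14, and Krt15 marks basal and stem-like cells of several epithelia. In the mouse, the type I genes form a cluster on chromosome 11 and the type II genes a cluster on chromosome 15. Krt18 is the exception, a type I gene at the edge of the type II cluster beside its usual partner Krt8. By the annotation of GRCm38, the same build as the mm10 named in the submitters' processing notes, 25 of the 47 genes lie on chromosome 11 and 22 on chromosome 15.

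Promoters are shown for Krt8 and Krt18, the luminal partners whose counts lay far apart, and for Krt7, the type II gene with the highest count in 2 of the 3 libraries. Each is the 250 bases before the RefSeq start of the gene in GRCm38.p6, read 5′ to 3′ on the strand of the gene. Capitals mark matches, on either strand, to the letters TATAA of the TATA box, to GGGCGG of the GC box, or to CCAAT. The Krt8 window is chr15:102004343-102004592 on the minus strand, the Krt18 window chr15:102027966-102028215 on the plus strand, and the Krt7 window chr15:101412153-101412402 on the plus strand.
Krt8: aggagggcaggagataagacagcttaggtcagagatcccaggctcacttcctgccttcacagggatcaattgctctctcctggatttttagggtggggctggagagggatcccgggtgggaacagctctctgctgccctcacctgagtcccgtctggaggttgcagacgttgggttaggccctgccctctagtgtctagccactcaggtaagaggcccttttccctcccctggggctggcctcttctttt
Krt18: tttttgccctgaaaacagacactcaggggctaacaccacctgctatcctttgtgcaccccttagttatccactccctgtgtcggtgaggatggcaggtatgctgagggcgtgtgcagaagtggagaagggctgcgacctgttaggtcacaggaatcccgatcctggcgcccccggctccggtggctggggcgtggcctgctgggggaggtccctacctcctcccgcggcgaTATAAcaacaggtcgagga
Krt7: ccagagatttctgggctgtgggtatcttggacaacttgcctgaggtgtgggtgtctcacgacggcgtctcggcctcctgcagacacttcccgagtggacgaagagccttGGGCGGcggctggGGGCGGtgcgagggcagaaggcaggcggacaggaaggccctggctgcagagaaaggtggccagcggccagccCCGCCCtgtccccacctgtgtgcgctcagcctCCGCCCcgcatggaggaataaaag

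The Krt18 window holds 1 TATAA match, which begins 19 bases before the start, and no GGGCGG or CCAAT. The Krt7 window holds 4 GGGCGG matches and neither of the other motifs, and the Krt8 window holds none of the 3. Over the 32851 promoters of that table, 22.8% hold TATAA, 32.7% hold GGGCGG and 33.8% hold CCAAT in the same 250 bases. A match is a run of letters and not a measured binding site, and the table has a promoter for 34 of the 47 keratin genes. The RefSeq starts differ from those of the GENCODE M21 gene models used for the lengths. By those models the Krt7 window lies wholly inside the gene, and the Krt8 and Krt18 windows lie partly inside. The TATAA match of Krt18 falls in the part inside the gene.

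The libraries held 17620771 counts (L3), 14068696 (L2) and 15929308 (L1), of which the 2 mitochondrial ribosomal RNAs took 18.9% to 21.6%. The labelled epithelial cell type was checked on 8 general epithelial markers, of which 5 reached 10 counts in at least 1 library. Cldn3 had 1923, 2512 and 4737 counts and Esrp2 1023, 1504 and 1997 counts in L3, L2 and L1. In the same order Epcam had 1, 12 and 1 counts and Cdh1, the gene of E-cadherin, 17, 109 and 6 counts. Cldn4 had 238, 316 and 181 counts, and Cldn7, Ocln and Esrp1 had at most 2 counts in any library. Foxa1, a prostate luminal marker, had 3457, 2320 and 1641 counts. Markers of other cells were not level. Summed over 8 fibroblast markers, all with at least 10 counts, the value was 1310 CPM (counts scaled to a library total of 1000000) in L3, 4710 CPM in L2 and 998 CPM in L1. The 8 white blood cell markers summed to 94.1, 433 and 90.3 CPM and the 5 skeletal muscle markers to 64.9, 269 and 23.0 CPM in the same order. The 5 endothelial markers summed to 134, 169 and 201 CPM, an order carried by Vwf with 9.76, 49.5 and 83.9 CPM. Pecam1, Cdh5, Kdr and Tek differed by less than 2-fold in every pair of libraries. The list of 3 genes for mesothelium and simple gland summed to 87.2, 554 and 6.28 CPM, nearly all of it Msln. Upk3b was at 0 and Wt1 had 10, 13 and 4 counts, so that sum stands for Msln alone. Library L2 was thus the highest in the lists of fibroblasts, white blood cells and muscle, and in Msln. Of 11 markers of skin epidermis, 9 were at 0 in every library and the list summed to 2.55, 5.76 and 1.69 CPM, most of it Sbsn. The part of these cells in the keratin values was not tested, and in bulk RNA fewer cells of a type and less RNA per cell cannot be told apart.

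Of the 47 keratin genes, 12 reached 10 counts in at least 1 library, 10 had a highest count between 1 and 9, and 25 were at 0 in all 3. Over all genes of the table, 41.8% reached 10 counts in at least 1 library. The 12 were Krt4, Krt7, Krt8, Krt15, Krt17, Krt19, Krt31, Krt32, Krt36, Krt78, Krt79 and Krt80. Just inside that limit lay Krt79 with at most 10 counts and Krt17 with at most 11, and just outside it Krt42 with at most 9 and Krt18 with at most 8. Of 11 epithelial type II genes 6 were detected, against 3 of 14 epithelial type I genes and 3 of 21 genes of hair and its root sheath. The classes follow the numbers of the gene names. The remaining gene, Krt222, is a type I-like gene and had 1 count in 1 library. By library, 10 members reached 10 counts in L3, 11 in L2 and 6 in L1. Of all 37411 genes, 14573 reached 10 counts in L3, 14639 in L2 and 13762 in L1.

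Among the luminal keratins, Krt8 was present in every library, with CPM that differed by at most 1.47 times, and Krt18 was nearly absent. Krt8 (ENSMUSG00000049382.10, chr15:101996698-102004482) had 1475 counts in L3, 1198 in L2 and 922 in L1. These are 83.7, 85.2 and 57.9 CPM, so the libraries L3 and L2 lay close together and L1 below them. The ratio of CPM was 0.983 for L3 over L2 (95% counting interval 0.910 to 1.06), 1.45 for L3 over L1 (1.33 to 1.57) and 1.47 for L2 over L1 (1.35 to 1.60). Such intervals cover counting error only, and with no replicate library the spread between tumors is unknown. Krt18 (chr15:102028180-102032027) starts 23.7 kb after the end of Krt8 and had 8, 3 and 1 counts in L3, L2 and L1. Krt18 encodes the type I partner that Krt8 pairs with in simple epithelia, and its level per length, the CPM divided by the kb of exon, was 0.316, 0.148 and 0.0437 CPM per kb. On the same scale the level of Krt8 was 42.8, 43.5 and 29.6.

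Whether reads of these genes could have been lost to copies elsewhere was measured on the annotated transcripts. Of the 50-base windows of the Krt18 transcript, 0.72% also occurred in a transcript of another gene. For Krt8 that share was 29.7%, the largest partner being the pseudogene Krt8-ps. How reads from such shared stretches were counted is not stated, so the effect on the counts of Krt8 is unknown. Copies outside the annotated transcripts were not analysed here.

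Krt19, the smallest keratin, which lacks most of the usual tail, was the only luminal type I gene with more than 10 counts. It had 394 counts in L3, 701 in L2 and 106 in L1, or 22.4, 49.8 and 6.65 CPM. Library L2 was highest and L1 lowest, with ratios of 0.449 for L3 over L2 (95% counting interval 0.396 to 0.508), 3.36 for L3 over L1 (2.71 to 4.20) and 7.49 for L2 over L1 (6.10 to 9.27).

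Among the basal keratins, Krt5 and Krt14 were at or near 0 while Krt15 was among the most abundant keratins in 2 of the 3 libraries. Krt5, the type II keratin of basal cells, was at 0 in every library. By a 1-sided 95% limit, a count of 0 allows up to 3 counts, or 0.170, 0.213 and 0.188 CPM in L3, L2 and L1. The 2-sided Poisson interval reaches up to 0.209, 0.262 and 0.232 CPM. Krt14, its type I partner, had 1, 4 and 0 counts. Krt15 (ENSMUSG00000054146.8, chr11:100131758-100135928) had 1497 counts in L3 and 1785 in L2, against 24 in L1. In CPM these are 85.0, 127 and 1.51, so L1 stood far below the other two. The ratio was 56.4 for L3 over L1 (95% counting interval 37.7 to 88.3), 84.2 for L2 over L1 (56.4 to 132) and 0.670 for L3 over L2 (0.625 to 0.718). Only 0.666% of the 50-base windows of the Krt15 transcript occurred in another gene's transcript. For Krt5 that share was 12.2%, with Krt6a as the largest partner, and for Krt14 14.4%, with Krt16. The effect of such shared stretches on the counts of Krt5 and Krt14 is unknown.

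The basal marker list of 8 genes, which holds Krt5, Krt14 and Krt15 too, summed to 150, 143 and 8.04 CPM in L3, L2 and L1, most of it Krt15 in L3 and L2 and Trp63 in L1. Ngfr, a surface receptor used to sort basal cells, had 937 counts in L3, 140 in L2 and 20 in L1. Lgr6, a receptor known from stem cells of the skin, had 73, 4 and 0 counts. Krt15, Ngfr and Lgr6 thus each had their lowest count in L1, but Ngfr and Lgr6 were highest in L3, whereas Krt15 was highest in L2. Trp63, the transcription factor p63 of basal cells, had 128, 65 and 77 counts and differed between libraries by less than 2-fold in CPM. Dlk1 had at most 1 count, and Col17a1, a hemidesmosome protein, had 0, 13 and 7 counts. Of the basal markers with at least 50 counts in 1 of the 2 libraries, 3 of 4 were higher by over 2-fold in L3 over L1 (Krt15, Ngfr and Lgr6), 2 of 3 in L2 over L1 (Krt15 and Ngfr) and 2 of 4 in L3 over L2 (Ngfr and Lgr6), and 0 were lower in any pair. Over all genes with that many counts, 10.6% were higher in L3 over L1, 14.8% in L2 over L1 and 9.15% in L3 over L2. For the basal markers with that many counts, the median log2 fold was 5.55, 2.92 and 1.53 in the same order of pairs. Over all genes it was 0.09, -0.06 and 0.12. Krt15 and Ngfr in both pairs with L1, and Lgr6 wherever it entered, had enough counts only in the library where they were higher. Krt5, Krt14, Dlk1 and Col17a1 had too few counts to enter any pair. The shares and medians are thus partly set by the count limit, and they describe few genes and not the list.

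**Figure D1:**
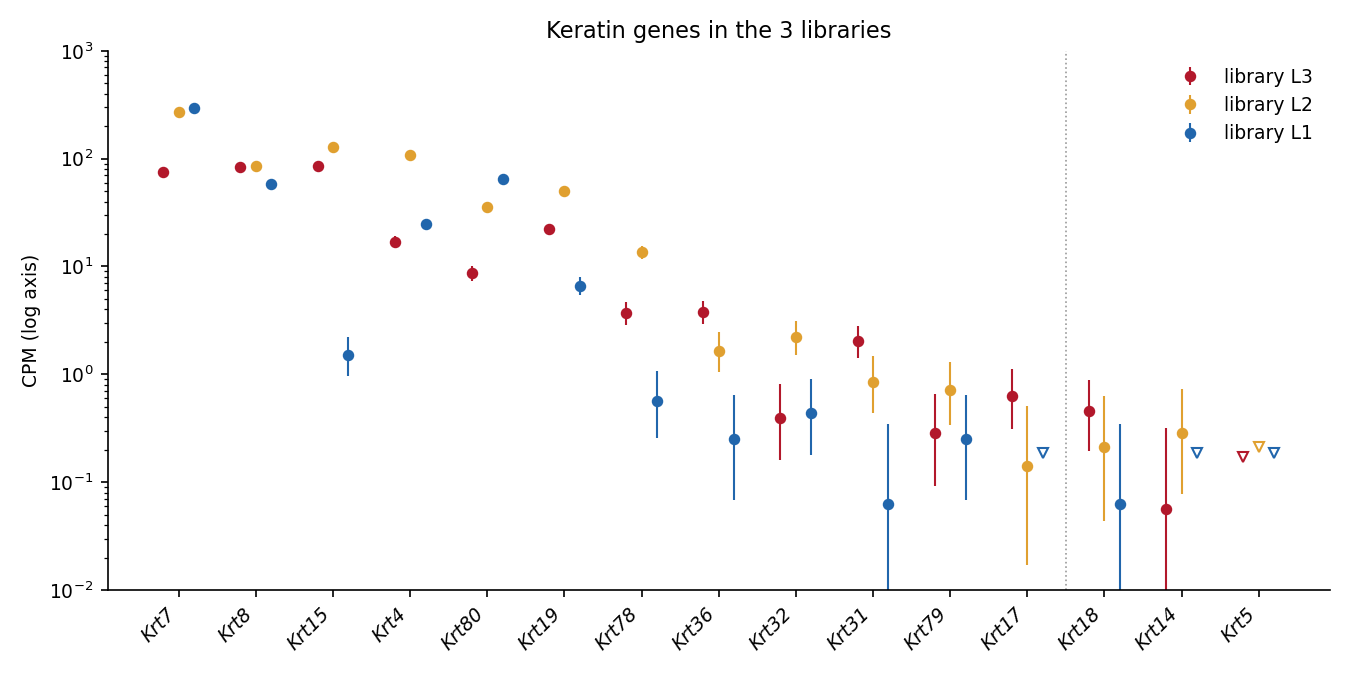
CPM (log axis) of the 12 keratin genes with at least 10 counts in 1 library, and right of the dotted line of Krt18, Krt14 and Krt5, in libraries L3, L2 and L1. Points are single libraries and bars are 95% Poisson counting intervals, which are 2-sided. Open triangles mark a count of 0, drawn at the 1-sided limit of 3 counts. Krt15 in L1 stands at 1.51, far under 85.0 in L3 and 127 in L2.

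The luminal and basal genes were set against each other within each library, which needs no scaling between libraries. Summed per length over Krt8, Krt18 and Krt19, the luminal level was 55.1 CPM per kb in L3, 70.5 in L2 and 33.2 in L1. The basal level over Krt5, Krt14 and Krt15 was 48.1, 72.0 and 0.853. The luminal to basal ratio was thus 1.15 in L3 and 0.98 in L2, against 38.9 in L1. Of the raw counts of the 6 genes, the luminal genes took 55.6% in L3 (95% Clopper-Pearson interval 53.9% to 57.3%), 51.5% in L2 (49.9% to 53.2%) and 97.7% in L1 (96.6% to 98.5%). The basal sum is almost wholly Krt15. With Krt8 and Krt15, the most abundant gene of each list, left out, the ratio was 383 in L3 and 167 in L2, both resting on 1 to 4 basal counts, and could not be formed in L1, where Krt5 and Krt14 were at 0. In L2 the ratio lay on the other side of 1 with the length of the longest transcript (1.01) and with raw counts (1.06).

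The other simple and stratified keratins of type II were led by Krt7, which lines ducts and glands. Krt7 (ENSMUSG00000023039.17, chr15:101411043-101430313) had 1338 counts in L3, 3822 in L2 and 4689 in L1, or 75.9, 272 and 294 CPM. It was lower in L3 than in either other library, with ratios of 0.280 over L2 (95% counting interval 0.262 to 0.298) and 0.258 over L1 (0.243 to 0.274). Between L2 and L1 the ratio was 0.923 (0.884 to 0.963). Krt80, an epithelial type II keratin (chr15:101347444-101370162), had 153, 501 and 1022 counts in L3, L2 and L1. In CPM these are 8.68, 35.6 and 64.2, the same order of libraries as for Krt7. The ratio of Krt80 was 0.135 for L3 over L1 (0.113 to 0.161), 0.244 for L3 over L2 (0.202 to 0.293) and 0.555 for L2 over L1 (0.498 to 0.618). Krt7 and Krt80 lie on the same side of the type II cluster, with annotated exons of other genes on the opposite strand covering 1.09% of the Krt7 exons and 4.11% of the Krt80 exons.

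Krt4 and Krt78 were highest in library L2. Krt4, a type II keratin of wet stratified epithelia such as the oesophagus (chr15:101918535-101924735), had 299 counts in L3, 1510 in L2 and 391 in L1, or 17.0, 107 and 24.5 CPM. Its ratio was 0.158 for L3 over L2 (95% counting interval 0.139 to 0.179) and 4.37 for L2 over L1 (3.91 to 4.90). Its usual type I partner Krt13 had 6, 2 and 0 counts, below the detection limit in every library. Krt78 (chr15:101946001-101954287) had 65 counts in L3, 191 in L2 and 9 in L1, with ratios of 0.272 for L3 over L2 (0.202 to 0.362), 6.53 for L3 over L1 (3.24 to 14.9) and 24.0 for L2 over L1 (12.4 to 53.4). Its neighbour Krt79 had 5, 10 and 4 counts, close to the detection limit. Library L2 was also the one with the highest sums of fibroblast, white blood cell and muscle markers and the highest Msln. The part of such cells in these values was not tested.

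Of the keratins of stress and wound repair and of the epidermis, those among the 47 had at most 11 counts in any library. Krt16 had 1, 6 and 0 counts and Krt17 had 11, 2 and 0 counts in L3, L2 and L1. Krt6a, the type II partner of both, is not among the 47 because its symbol ends in a letter. It had 59, 267 and 61 counts, with L2 highest, and Krt6b was at 0. The epidermal genes Krt1 and Krt2 were at 0, and Krt10 had 2, 0 and 0 counts. Krt20, a keratin of the gut and urothelium, had 4, 0 and 1 counts and Krt23 was at 0.

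Of the hair keratins, 3 type I genes were counted at low levels, with L1 lowest for Krt31 and Krt36 and L2 highest for Krt32. Krt36 had 66 counts in L3, 23 in L2 and 4 in L1, with a ratio of 2.29 for L3 over L2 (95% counting interval 1.41 to 3.86) and 14.9 for L3 over L1 (5.56 to 56.4). Krt31 had 36, 12 and 1 counts, and 28.1% of its 50-base windows also occurred in another gene's transcript, mostly that of Krt34. Krt32 had 7, 31 and 7 counts, and an antisense transcript covers 14.5% of its exons. The hair keratins Krt34, Krt35, Krt81 and Krt86 were at 0 in every library, as was the hair shaft regulator Hoxc13. Of the 50-base windows, 33.1% of those of Krt34, 43.5% of those of Krt81 and 43.3% of those of Krt86 were shared with other transcripts. The hair shaft gene Tchh had 0, 2 and 0 counts. The 12 hair markers with a row summed to 83.5, 42.4 and 31.3 CPM in L3, L2 and L1, nearly all of it Padi3. Krt83 had 2, 1 and 0 counts and Krt42, a type I gene next to Krt17, had 1, 9 and 1 counts.

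Per length, the order of the keratins differed between libraries. In L3 the highest levels were those of Krt15 (48.1 CPM per kb), Krt8 (42.8), Krt19 (12.1) and Krt7 (10.8). In L2 they were Krt15 (71.8), Krt4 (50.3), Krt8 (43.5) and Krt7 (38.5), and in L1 Krt7 (41.8), Krt8 (29.6), Krt4 (11.5) and Krt80 (10.0). On these exon lengths Krt8 was in the first 3 of every library, with a level above that of 96.6% to 98.2% of all genes with a length. The 7 genes Krt7, Krt8, Krt80, Krt4, Krt15, Krt19 and Krt78 made up 96.1% of the summed keratin level in L3, 98.3% in L2 and 99.4% in L1. The level of Krt7 depends on the length taken. Its annotated exons together span 7049 bases, against 4094 bases for its principal transcript, on which its level was 18.5, 66.4 and 71.9 in L3, L2 and L1. On principal transcripts Krt7 followed Krt15 and Krt8 in L3 and followed Krt15 in L2, and it led in L1. Krt8 was then behind Krt15, Krt7 and Krt4 in L2, and so no longer in the first 3 there.

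The balance of the 2 types differed between libraries. Summed over all members, the type II level was 64.0 CPM per kb in L3, 142 in L2 and 93.1 in L1. The type I level was 65.1 in L3, 103 in L2 and 5.0 in L1. The ratio of type II over type I was thus 0.984 in L3 and 1.39 in L2, against 18.6 in L1. In L1 the type I sum had 145 counts, 106 of them from Krt19 and 24 from Krt15, beside 7037 type II counts. The ratio depends on the scale and on single genes. With raw counts, not divided by length, it was 1.64 in L3, 2.81 in L2 and 48.5 in L1, and without Krt8 and Krt15 it was 1.25, 3.20 and 15.3. With principal transcript lengths it was 1.06, 1.60 and 23.6, so in L3 the ratio lay above 1 under each of these settings. These are RNA levels, and protein was not measured.

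**Figure D2:**
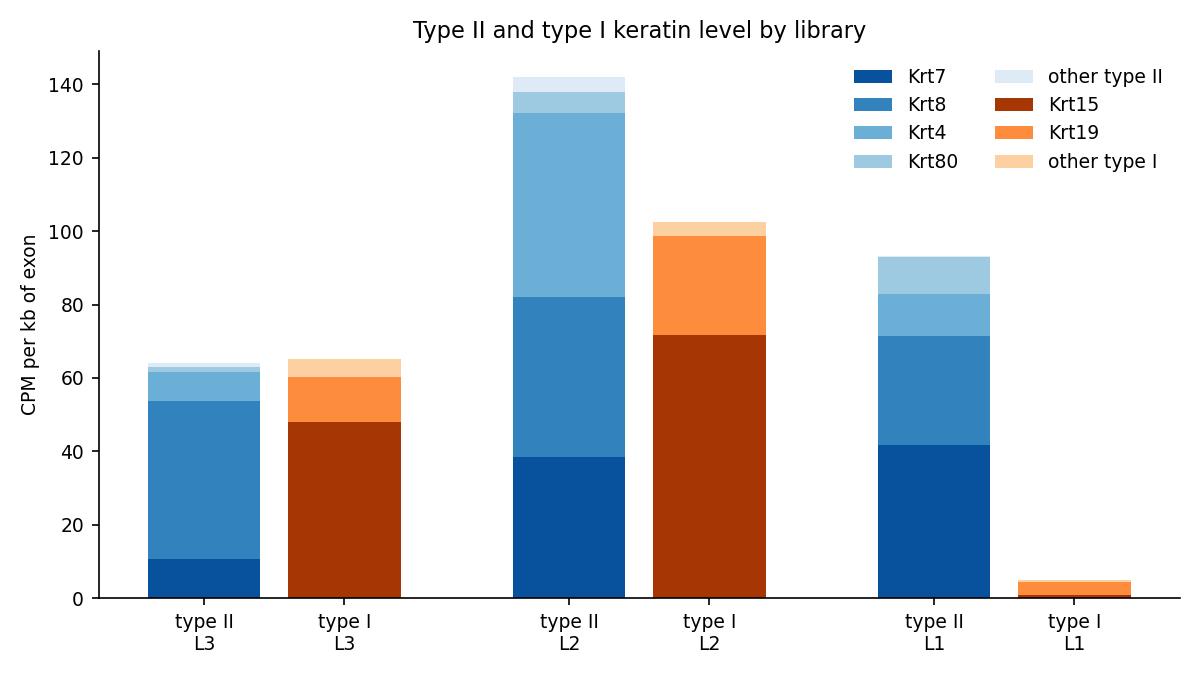
Summed level of type II (blue) and type I (orange) keratin genes in CPM per kb of exon (linear axis from 0), stacked by gene, for libraries L3, L2 and L1, with 1 library a bar and no error bars. The type I bar reaches 65.1 in L3 and 103 in L2 but 5.0 in L1, where type II reaches 93.1.

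Folds between libraries were read against all genes. A gene was counted as past 2-fold when it had at least 50 counts in 1 of the 2 libraries and its CPM, with a prior of 1 count, differed by more than 2-fold. With 1 library on each side this is a rule of size and not a test. In L3 over L2, 6 of 8 keratin genes with enough counts were past 2-fold, 1 higher (Krt36) and 5 lower (Krt4, Krt7, Krt19, Krt78 and Krt80). Over all genes 21.1% were past 2-fold, 9.15% higher and 11.9% lower. In L3 over L1, 6 of 8 were past 2-fold, with Krt15, Krt19, Krt36 and Krt78 higher and Krt7 and Krt80 lower, beside 16.6% of all genes (10.6% higher and 5.95% lower). In L2 over L1, 4 of 7 were past 2-fold, all higher (Krt4, Krt15, Krt19 and Krt78), beside 21.3% of all genes (14.8% higher and 6.5% lower). The median log2 fold of the keratin genes with enough counts was -1.5, 1.14 and 2.13 in these 3 pairs, beside 0.12, 0.09 and -0.06 over all genes. The pairs share libraries and are not independent of each other. Most keratin genes are left out here by their low counts, so these medians describe 8, 8 and 7 genes and not the family. Krt36 had enough counts only in L3. In the pairs with L1, Krt15 and Krt78 had enough only in the library where they were higher. Krt8 was the only one of the 8 that stayed within 2-fold in all pairs it was read in.

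**Figure D3:**
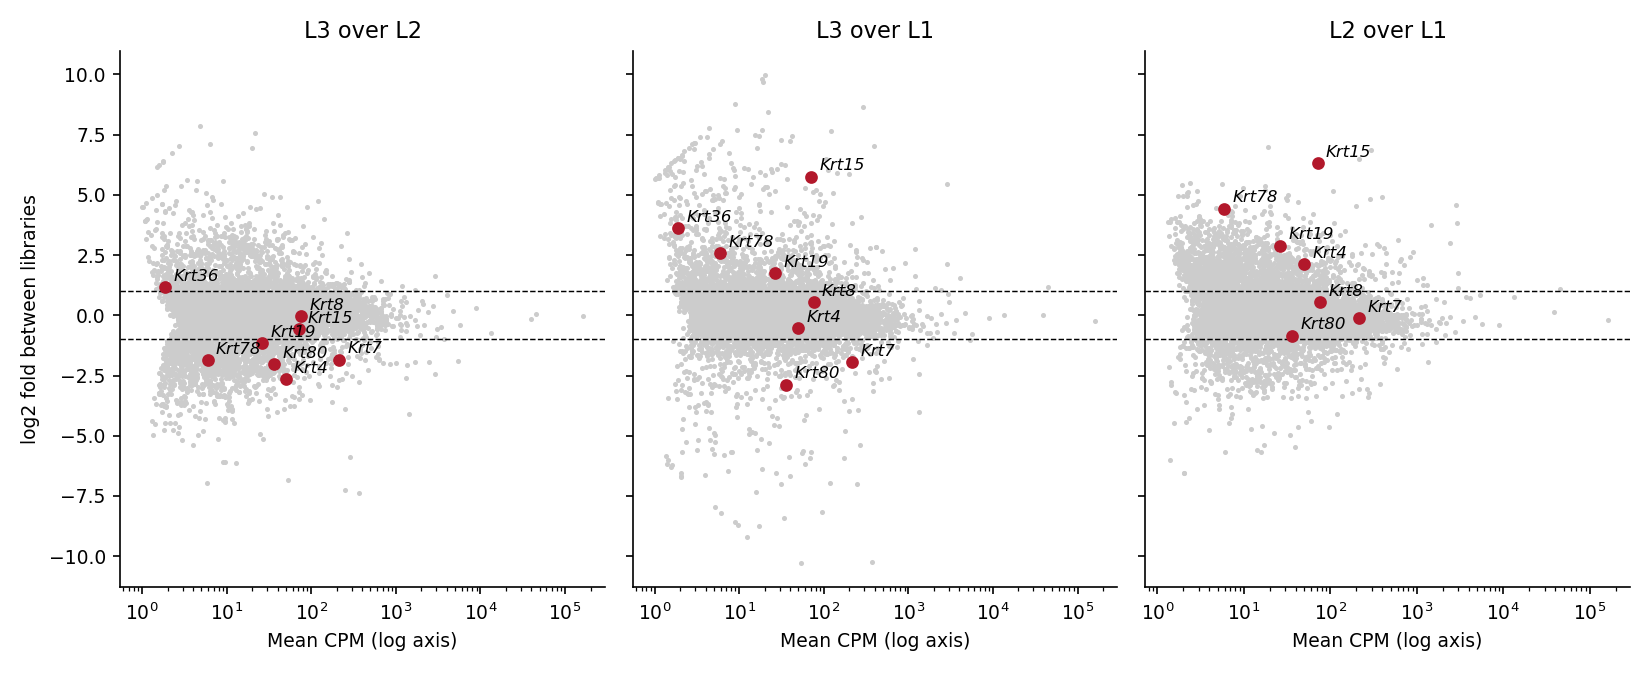
Log2 fold between libraries (vertical axis) against mean CPM (log axis) for every gene with at least 50 counts in 1 of the 2 libraries (grey) and for keratin genes (red, labelled), with dashed lines at 2-fold. Krt15 stands at 5.76 in L3 over L1 and at 6.33 in L2 over L1, and Krt8 lies between the lines in all 3 panels.

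Other genes of the filament system are given from lists not picked for how they moved. Of 16 other intermediate filament genes, 10 reached 10 counts in 1 library. Lmna, a nuclear lamin, had levels of 51.4, 40.3 and 37.7 CPM per kb in L3, L2 and L1, and Vim, the filament protein vimentin of mesenchymal cells, had 51.6, 40.7 and 27.3. Their levels were thus of the size of that of Krt8. Synm, a filament protein known from muscle that attaches filaments to other structures, had levels of 5.99 and 8.04 in L3 and L2 against 66.5 in L1. In L2 over L1, 1 of 7 genes of that list with enough counts was higher by over 2-fold and 2 were lower. In L3 over L1, 2 of 8 were higher and 1 lower, and in L3 over L2 likewise 2 of 8 and 1. Over all genes with enough counts, 14.8% were higher and 6.5% lower in L2 over L1. Those shares were 10.6% and 5.95% in L3 over L1, and 9.15% and 11.9% in L3 over L2. Whether these filament genes differ from all genes was not tested.

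Of 17 genes with a row among the proteins that anchor keratin filaments at the membrane, 15 reached 10 counts. The linkers Plec, Dst and Jup had levels of 33.2, 21.8 and 23.4 CPM per kb in L3, 28.3, 22.0 and 25.0 in L2, and 21.6, 20.8 and 21.7 in L1, so each differed by less than 2-fold between libraries. Dsp, the gene of desmoplakin, which ties keratin filaments to desmosomes, had 9, 15 and 3 counts. The desmosomal cadherin genes Dsg2 and Dsc2 had at most 1 and 2 counts. Of 12 anchor genes with enough counts, 2 were higher and 1 lower past 2-fold in L3 over L2. In L3 over L1, 1 was higher and 3 lower, and in L2 over L1, 1 was higher and 1 lower. Over all genes with enough counts, 9.15% were higher and 11.9% lower in L3 over L2. Those shares were 10.6% and 5.95% in L3 over L1, and 14.8% and 6.5% in L2 over L1. Whether the anchor genes differ from all genes was not tested.

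Of 17 transcription factors of the luminal or basal state or of keratin genes, 13 reached 10 counts. The highest per length were Foxa1 (59.0, 49.6 and 31.0 CPM per kb in L3, L2 and L1), Hoxb13 (38.1, 18.9 and 11.9) and Gata3. Gata3, a luminal factor of breast and prostate, had 22.1, 19.4 and 6.19 on the same scale, lowest in L1. Of 12 with enough counts, 1 was higher and 1 lower past 2-fold in L3 over L2. In L3 over L1, 3 were higher (Gata3, Hoxb13 and Sox9) and 0 lower. In L2 over L1, 2 were higher (Gata3 and Sox9) and 1 lower (Grhl2). Over all genes with enough counts, 9.15% were higher and 11.9% lower in L3 over L2. Those shares were 10.6% and 5.95% in L3 over L1, and 14.8% and 6.5% in L2 over L1. Whether the list differs from all genes was not tested.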

How the data were processed

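Total RNA was sequenced from stranded Illumina libraries, per the labels' protocols, with 3 libraries in all. Of tools, cutadapt and HTSeq 0.6.0 are listed in the submitters' processing notes, with mm10 as the build. For the aligner, the annotation, reads that match several genes and the strand setting, the labels and headers give no statement. The authors deposited a table of raw read counts per gene and a table of normalized counts, entered here as a signal. The deposited normalized signal equals the raw count divided by 1 constant per library, which matches the DESeq2 size factor computed here to within rounding. The series text speaks of microarrays, whereas the labels describe sequencing.

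No label ties a column to a stage, so columns were used as unassigned libraries of 1 experiment, without replicates, count model or p-value. Depth was 14068696 to 17620771 counts per library. Counts were divided by the library total (CPM) and, for levels, by the union of annotated exons in GENCODE M21. Folds used a prior of 1 count scaled to the library total, and genes with at least 50 counts in 1 of the 2 libraries. Counting intervals (95%) were exact Poisson for counts, Clopper-Pearson for shares and conditional binomial for ratios. They cover counting error only, since there is no replicate library. Reads are not independent molecules, so the intervals may be too narrow even for that error. Promoter sequences were credited to RefSeq for GRCm38.p6. The fold rule was checked only on simulated Poisson counts, with changes planted in genes of high count. Such counts hold no spread between tumors, so the check covers the computing of folds and not their meaning here. Named genes were a fixed set of luminal, basal, simple, stress and epidermal keratins, the 20 members of highest mean level per length, and every member past 2-fold with at least 50 counts. From other lists at most 3 genes of highest mean level were to be named, and others given were chosen after their values were seen. The members and lists were chosen with earlier results of these data known. Alternatives covered scaling (edgeR 4.0.16 TMM and DESeq2 1.42.0 size factors), length, count limits, fold limits, prior count and leaving out each library. Python 3.11.15, SciPy 1.17.1 and R 4.3.3 were used.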

Additional observations from a re-analysis of the deposited data

How the results depend on the processing

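No paired analysis was possible because the 3 libraries form 1 group of unassigned columns. Fold counts of keratin genes were within 1.5 times the value given under TMM, DESeq2 size factors, the deposited normalized table, a fold limit of 1.5 or 3, a prior of 5 counts and counting intervals wholly past 2-fold. With a limit of 10 counts they were 10 (L3 over L2) and 8 (L2 over L1), against 6 and 4, and with a limit of 1 count 17, 13 (L3 over L1) and 17. Past 2-fold in any pair were 7 genes, and 4 to 6 with each library left out (4 without L3). Detected members numbered 12, but 6 with 10 counts asked of all 3 libraries and 22 with 1 count in any, and 10 to 12 with each library left out. Over 64 recomputed folds of 7 genes, all kept their sign and 61 lay within the counting interval. Scaling by DESeq2 size factors moved the median fold of all genes by at most 0.10 (log2).

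The luminal over basal ratio was 1.25 in L3 with raw count sums, 383 without Krt8 and Krt15 and 373 with the median of the 3 genes. In L2, where it was 0.98, it was 1.01 with the longest or the principal transcript, 1.06 with raw counts, 167 without Krt8 and Krt15 and 166 with the median. In L1 the ratio without Krt8 and Krt15 and the median gave no value, since Krt5 and Krt14 were at 0. The median over libraries was 1.15, and 1.063 to 20.04 with each library left out (19.95 without L3 and 20.04 without L2). The type II over type I ratio, whose alternatives were chosen after seeing the data, was 0.984 in L3, and 1.05 with the longest transcript, 1.06 with the principal one, 1.64 with raw counts and 1.25 without Krt8 and Krt15. In L2 these were 1.57, 1.60, 2.81 and 3.20, and in L1 22.8, 23.6, 48.5 and 15.3. Its median was 1.39, and 1.185 to 10.01 with each library left out (10.01 without L3 and 9.805 without L2). Longer exon unions of Krt7 and Krt80 lower their levels by construction, and the cause of the other shifts was not tested. Counts under about 10 limit every statement on Krt5, Krt14 and Krt18 to their near absence at this depth.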
